A study of Mus musculus with 32 samples.

Results

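Liver RNA of 16 male mice that had eaten E171 all their lives was compared between a Western and a normal diet. E171 is food-grade titanium dioxide, a white colouring agent. The comparison took the 8 mice labelled Western diet with E171 and the 8 labelled normal diet with E171, out of 32 mice in the series, and left the choice of genes to the arrays: a non-control probe was kept where the scanner software flagged it as well above background in 6 or more of the 8 mice of either group. This kept 35115 of 56605 probes, which stand for 23267 genes, 17810 of them with a symbol and 5457 known by probe only. Where a gene had several probes, the brightest stood for it.

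The mice were F1 offspring of C57BL/6J parents, with F0 dams from Janvier Labs. The dams ate pellets aimed at 10 mg of E171 per kg of body weight per day from before mating, and the pups stayed on that treatment until they were sampled at 21 weeks of age. Both compared groups therefore carried the additive. The diets parted at 5 weeks of age and lasted 16 weeks; the group labels say Western diet and the protocol says high fat diet, and the composition of the pellets is not given in the labels. The other 16 mice, 8 on each diet, had pellets without E171 and serve here as the comparison without the additive. Each mouse gave 1 one-colour array (Cy3). Litter and cage are not given, so whether mice shared a dam is not known, and the p-values take each mouse as 1 independent sample.

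A diet rich in fat and sugar loads hepatocytes with triglyceride, which is stored in droplets coated by perilipin and CIDE proteins. Sterol that enters with the diet lowers cholesterol synthesis through retention of SREBP2 in the endoplasmic reticulum, while oxidised sterols and fatty acids act as ligands of LXR and of the PPAR receptors. When droplets persist, hepatocytes die and are replaced, monocyte-derived macrophages that take up lipid gather around them, and stellate cells lay down collagen.

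Levels below are log2 signals relative to the 75th percentile of the same array, so 0 is the brightness of that percentile, and 1 unit is 2-fold. Probes differ in brightness, so levels are compared between mice and not between genes. Differences are Western minus normal diet, as the mean of 8 mice less the mean of 8, with the standard error (SE) and the limma p-value adjusted over all 23267 genes by the method of Benjamini and Hochberg; a gene was called where that p-value was below 0.05.

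The diets left a mark on most of what was measured. Of 23267 genes, 12499 were called (53.7%), 5177 higher (22.3%) and 7322 lower (31.5%) on the Western diet. Large changes ran mostly upward: 1510 called genes rose by 2-fold or more and 462 fell by as much, while the median difference over all genes was −0.10. In 4246 genes (18.2%) the 16 mice did not overlap between the diets. Each of the 4 slides held 2 mice of either group, and 95.7% of the called genes had the same sign on every slide. The slides divide the same mice from which these genes were called, so this share is no separate support for the calls. The first principal component took 60.1% of the variance and parted the diets, with normal-diet mice between −58.0 and −39.2 and Western-diet mice between 22.9 and 73.6. Arrays gave 34053 to 35939 probes well above background on the normal diet and 32164 to 37261 on the Western diet. Since so many genes passed the test, a list is described below by how many members rose and fell, and by its median difference, beside these shares.

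**Figure D1:**
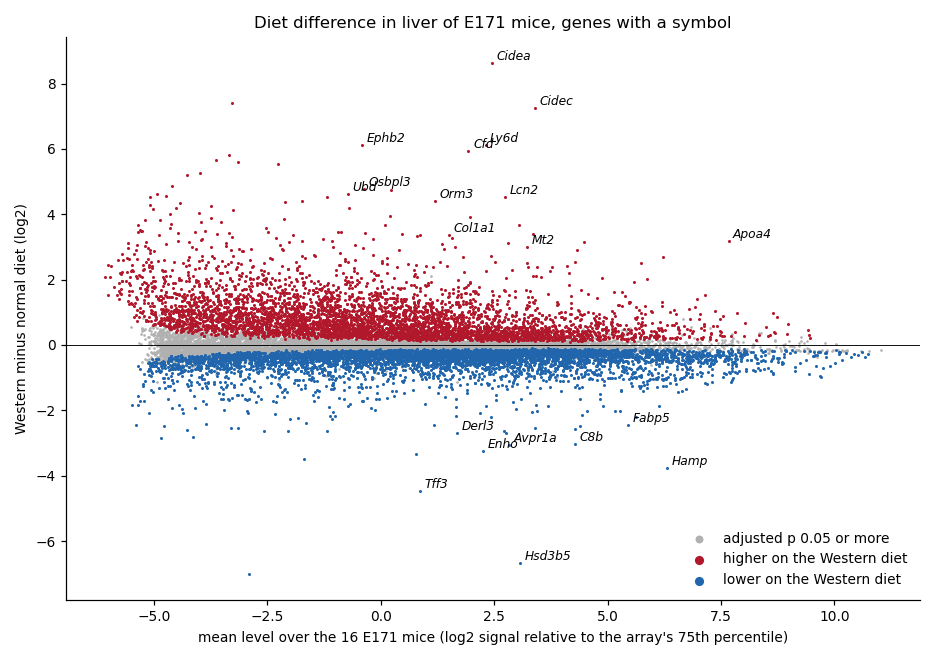
Each point is 1 gene with a symbol. The horizontal axis is its mean level over the 16 E171 mice (log2 signal relative to the array's 75th percentile) and the vertical axis the Western minus normal diet difference (log2); red genes were called higher, blue genes lower, grey genes were not called. The far tail is longer above 0, with Cidea at 8.64 and Cidec at 7.24, than below it, where Hsd3b5 fell by 6.67.

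A pair of lipid droplet genes, Cidea and Cidec, were far apart between the diets, while the list as a whole moved less. Of 18 members of the droplet list, 10 rose and 1 fell, with a median of 0.57. Cidea, which joins droplets to one another and is chiefly known from brown fat, ran from −3.52 to −0.47 with a median of −1.70 on the normal diet and from 6.29 to 7.46 with a median of 6.74 on the Western diet. The difference was 8.64 (SE 0.68, adjusted p = 2.22e-11). Its spread was lopsided: normal-diet mice covered more than 3 log2 units, Western-diet mice little more than 1. Cidec, which does the same work in white fat, ran from −1.04 to 0.91 (median −0.33) and from 6.90 to 7.10 (median 7.03), a difference of 7.24 (SE 0.23, adjusted p = 1.92e-20). All 8 Western-diet mice thus lay within 0.20 of each other for this gene. A long noncoding RNA, B430212C06Rik, has its probe at chr18:67482685-67482744 of mm9, close to the Cidea probe at chr18:67527351-67527410; it was above background in none of the 8 normal-diet mice and all 8 Western-diet mice, and was at least 25.9-fold higher.

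Coat proteins of the perilipin family moved by very different amounts. Plin4 ran from −0.67 to 0.84 (median 0.02) on the normal diet and from 2.93 to 4.64 (median 3.94) on the Western diet, a difference of 3.91 (SE 0.19, adjusted p = 1.21e-15). Plin2, the main perilipin of hepatocytes, was already bright and rose by 0.88 (SE 0.16), with 1 pair of mice touching between the diets at 7.72 and 7.71. Plin1, the perilipin of adipocytes, fell by 0.43 (SE 0.15). Fitm1, which helps droplets bud from the endoplasmic reticulum, rose by 1.89 and Hilpda, an inhibitor of the lipase ATGL, by 0.65. The lipases Pnpla2 and Mgll rose by 0.57 and 0.63, and Pnpla3, a droplet protein tied to fatty liver in people, was 1.01 lower without passing the test.

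Genes for fatty acid uptake and binding moved little as a list, with large differences in a few members. Of 17 genes 5 rose and 2 fell, against 22.3% and 31.5% of all genes, with a median of 0.09. Uptake itself was not measured. Cd36, a fatty acid translocase and PPARγ target, ran from −0.30 to 0.29 (median −0.11) and from 2.98 to 3.36 (median 3.25), a difference of 3.27 (SE 0.15, adjusted p = 2.92e-16). The lipoprotein receptor Vldlr rose by 1.93, the lipase Lpl by 1.61 and the binding protein Fabp4 by 2.29. Lpl had 6 probes whose differences ran from 0.05 to 2.40. Fabp5, another binding protein of the same family, went the other way, from 6.33 to 7.03 (median 6.65) down to between 3.48 and 4.80 (median 4.33), a fall of 2.46 (SE 0.30, adjusted p = 7.36e-08). The abundant liver form Fabp1 differed by −0.15 without a call.

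In triglyceride synthesis the largest rises in the list were of the monoacylglycerol route. Mogat1, which makes diacylglycerol from monoacylglycerol and is scarce in lean liver, ran from −2.23 to −1.01 and from 1.44 to 2.31, a difference of 3.67 (SE 0.26, adjusted p = 2.81e-12), and Mogat2 rose by 2.02, although its second probe gave −0.50. Gpat3, a glycerol-3-phosphate acyltransferase that was in no list, rose by 3.36 (SE 0.17, adjusted p = 2.17e-15), and Lpin2, a phosphatidate phosphatase of the same glycerol phosphate route, by 0.80, although its 6 probes ran from −0.06 to 0.81. Dgat2, which adds the last acyl chain, fell by 0.41. De novo lipogenesis did not move as a block: Fasn differed by 0.04 (SE 0.23), Acaca by less than 0.01 and Acly by −0.19, none called, while the desaturase Scd2 rose by 1.77 and Scd1 by 0.45. Srebf1, the transcription factor of that pathway, rose by 0.79 and Mlxipl, which encodes the glucose-sensing factor ChREBP, fell by 0.66. Over the 20 members, 8 rose and 2 fell, with a median of 0.28. Pparg itself, the adipocyte master regulator, ran from 0.75 to 1.72 (median 1.26) and from 3.40 to 4.13 (median 3.74), a difference of 2.54 (SE 0.18, adjusted p = 1.77e-12).

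Several strong rises lay outside the lists. Osbpl3, an oxysterol-binding protein of the endoplasmic reticulum, rose by 4.77 (SE 0.23), Smpd3, a neutral sphingomyelinase, by 4.74 (SE 0.46), and Treh, the enzyme that splits trehalose, by 4.20 (SE 0.21). Osbpl3 ran from −3.06 to −2.50 on the normal diet and from 1.38 to 2.32 on the Western diet. Ephb2, a receptor tyrosine kinase, differed by 6.13 by its brighter probe at chr4:136209527-136209586 of mm9 and by −0.22 by its other probe, so its value rests on 1 probe. Themis, a signalling protein known from thymocytes, and S100g, a calcium-binding protein of the gut, were above background in no normal-diet mouse and in every Western-diet mouse, at least 13.8-fold and 11.6-fold higher.

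**Figure D2:**
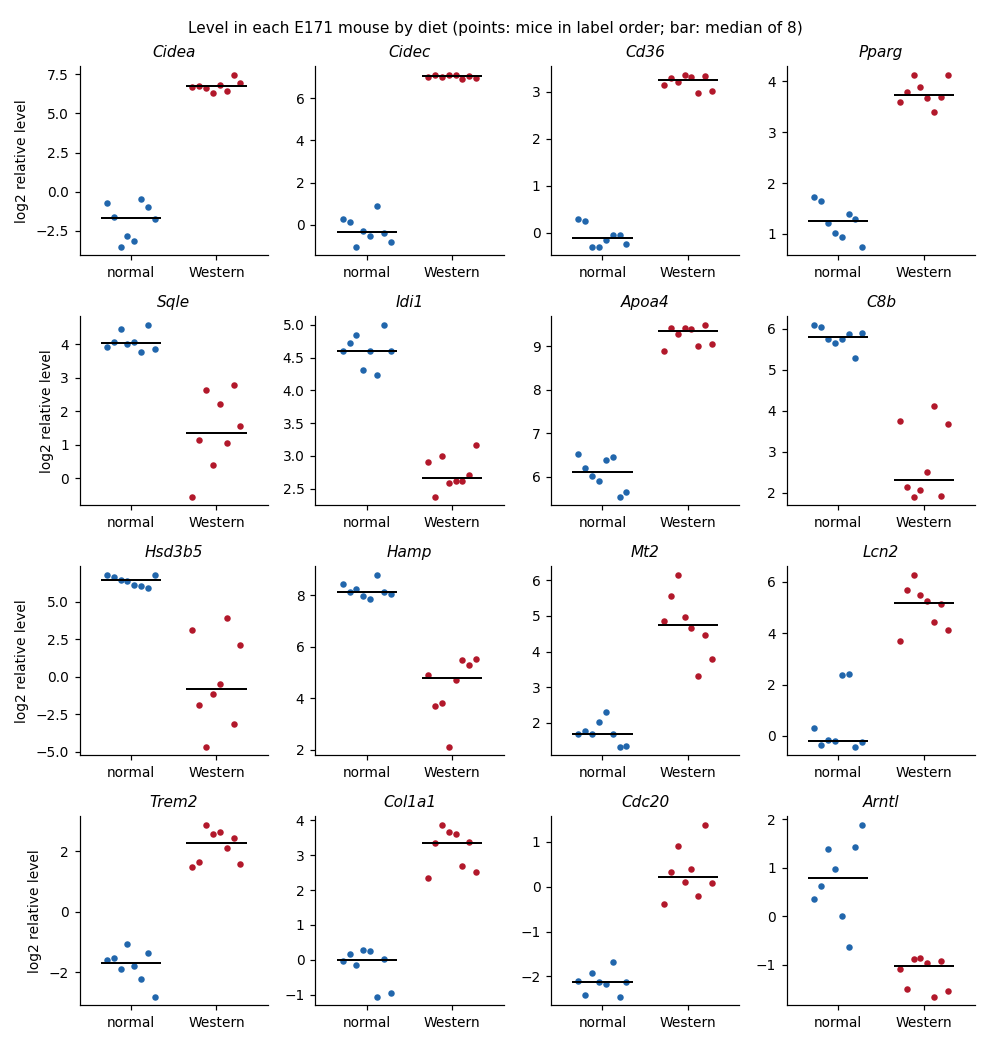
Level of 16 genes in each of the 8 normal-diet (blue) and 8 Western-diet (red) E171 mice, as log2 signal relative to the array's 75th percentile; the bar is the median of 8 and each panel has its own axis. Cidec is tight on the Western diet (6.90 to 7.10), whereas Hsd3b5 spreads from −4.66 to 3.96 there.

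Genes of cholesterol synthesis fell almost without exception. Of 24 members of the list of cholesterol synthesis and SREBP2 targets, 21 fell, none rose and 3 were not called, against 31.5% of all genes lower, and in 17 the mice did not overlap. The median was −0.96. Sqle, the epoxidase that commits squalene to sterols, ran from 3.78 to 4.58 (median 4.04) on the normal diet and from −0.56 to 2.79 (median 1.34) on the Western diet, a fall of 2.69 (SE 0.42, adjusted p = 4.24e-06). Idi1, which isomerises isopentenyl diphosphate, ran from 4.23 to 5.00 and from 2.38 to 3.17, a fall of 1.87 (SE 0.20, adjusted p = 9.38e-09). Cyp51, which demethylates lanosterol, fell by 1.65 (SE 0.21) and Mvd, which makes isopentenyl diphosphate, by 1.6 (SE 0.29), and in each the groups were apart. Every enzyme from mevalonate kinase (Mvk) to the sterol reductase Dhcr7 that passed the test was lower.

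Of the 3 members that were not called, Hmgcs1, the synthase that opens the pathway, differed by −0.33 (SE 0.25, adjusted p = 0.267) by its brighter probe and by −1.23 by its other probe, and the mean of both passed the test.

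Promoters of these genes share a short sequence that the choice of genes did not use. The CCAAT box, bound by the factor NF-Y, is known as a partner site of SREBP at sterol genes and as a common element of genes of mitosis. The letters CCAAT were searched on both strands in the 250 bases before each start site, in the RefSeq promoter table of build GRCm38.p6. In all, 16 of the 24 sterol genes matched an entry and 16 of these 16 held the letters, in 84.2% of their 19 promoters, against 33.8% of 32851 promoters in the table and 39.6% of the tested genes that matched. The other 8, Fdps, Fdft1, Sqle and Stard4 among them, had no entry. The list of cell cycle genes, which moved the opposite way, had the letters in 15 of 18 matched genes (83.3%). A sterol element spelt TCACNCCAC, searched likewise, was found in 1 of the 16 sterol genes, Hmgcs1, where it begins 137 bases before the start and overlaps no CCAAT box, and in 1.05% of all promoters. The 3 called members of each list with the largest differences and an entry that holds the box are shown, 5′ to 3′ on the gene's strand, with CCAAT or ATTGG in capitals; the last base is the one before the start site.

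The sterol genes, which fell, are these, from chr13:8885356-8885605 (plus strand), chr5:4104698-4104947 (minus strand) and chr8:122443423-122443672 (minus strand).
Idi1: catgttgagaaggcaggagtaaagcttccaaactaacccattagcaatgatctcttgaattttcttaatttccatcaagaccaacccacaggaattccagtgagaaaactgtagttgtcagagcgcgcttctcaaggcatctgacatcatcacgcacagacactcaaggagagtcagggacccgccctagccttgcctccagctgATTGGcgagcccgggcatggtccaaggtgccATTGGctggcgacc
Cyp51: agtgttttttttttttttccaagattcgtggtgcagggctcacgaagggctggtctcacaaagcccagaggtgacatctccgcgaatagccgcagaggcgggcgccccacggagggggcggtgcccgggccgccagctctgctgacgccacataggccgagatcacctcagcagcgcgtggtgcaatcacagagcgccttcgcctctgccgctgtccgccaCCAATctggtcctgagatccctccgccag
Mvd: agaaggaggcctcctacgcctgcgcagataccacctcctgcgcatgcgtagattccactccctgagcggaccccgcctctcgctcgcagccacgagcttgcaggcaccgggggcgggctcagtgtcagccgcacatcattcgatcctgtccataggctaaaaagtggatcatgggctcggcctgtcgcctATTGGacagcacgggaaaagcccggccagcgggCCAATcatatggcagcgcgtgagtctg

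The mitotic genes, which rose, are these, from chr4:118437344-118437593, chr11:99024190-99024439 and chr13:100786487-100786736, all on the minus strand.
Cdc20: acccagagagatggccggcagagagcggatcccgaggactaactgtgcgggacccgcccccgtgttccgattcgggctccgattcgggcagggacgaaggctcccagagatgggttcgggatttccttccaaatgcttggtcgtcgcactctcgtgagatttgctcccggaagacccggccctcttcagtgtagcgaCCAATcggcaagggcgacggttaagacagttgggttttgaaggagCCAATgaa
Top2a: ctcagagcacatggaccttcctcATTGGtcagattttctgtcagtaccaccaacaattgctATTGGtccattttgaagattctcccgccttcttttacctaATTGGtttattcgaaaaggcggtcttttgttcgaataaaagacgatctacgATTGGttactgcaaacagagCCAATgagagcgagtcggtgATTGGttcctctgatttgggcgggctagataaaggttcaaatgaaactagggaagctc
Ccnb1: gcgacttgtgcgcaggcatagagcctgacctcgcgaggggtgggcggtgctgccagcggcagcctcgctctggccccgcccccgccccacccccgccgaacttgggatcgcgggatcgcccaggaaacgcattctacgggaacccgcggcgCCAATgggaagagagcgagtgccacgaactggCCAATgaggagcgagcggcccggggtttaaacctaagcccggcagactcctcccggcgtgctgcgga

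In Idi1 the boxes begin 45 and 14 bases before the start, in Mvd 60 and 27 bases, and in Cdc20 53 and 8 bases. Top2a holds 6 of them and Cyp51 1. A match is a match of letters, and binding was not measured.

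Genes of sterol export leaned up. Of 11 LXR targets 6 rose and 2 fell, with a median of 0.49. Abcg1, which passes cholesterol to lipoproteins, ran from 0.14 to 0.58 and from 1.41 to 2.19, a difference of 1.41 (SE 0.14, adjusted p = 3.39e-09). Abcg5 and Abcg8, the partner subunits of the pump that sends sterol into bile, rose by 1.17 and 0.85, and Soat1, which esterifies cholesterol, by 0.93. Abca1, another LXR target, differed by −0.07 (SE 0.10) without a call, and the lipoprotein receptor Scarb1 fell by 0.44.

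Bile acid genes leaned down, with 11 of 22 lower and 5 higher and a median of −0.26. Cyp7b1, of the alternative synthesis route, ran from 4.85 to 6.27 (median 5.55) and from 2.29 to 4.37 (median 3.34), a fall of 2.16 (SE 0.34, adjusted p = 4.60e-06). Cyp7a1, the rate-limiting enzyme of the classic route, ran from −1.95 to 2.55 on the normal diet alone and differed by 0.46 (SE 0.62, adjusted p = 0.545), so no difference was detectable. The canalicular bile salt pump Abcb11 fell by 0.90 and the uptake carrier Slco1a1 by 2.64, whereas the basolateral exporters Abcc3 and Slc51b rose by 1.28 and 1.15. Nr0b2, which encodes the repressor SHP, fell by 0.88.

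Apolipoproteins were divided in direction. Of 20 members 4 rose and 11 fell, with a median of −0.21. Apoa4, made in liver when fat arrives, was bright on both diets and ran from 5.54 to 6.52 (median 6.10) and from 8.90 to 9.5 (median 9.35), a difference of 3.17 (SE 0.20, adjusted p = 2.14e-13). Apom, the carrier of sphingosine-1-phosphate on high-density lipoprotein, ran from 6.12 to 6.96 (median 6.84) and from 3.04 to 5.44 (median 4.94), a fall of 2.21 (SE 0.26). Apoa1 fell by 0.63 and Apoc2, the activator of lipoprotein lipase, rose by 0.98, while Apob differed by −0.12 without a call.

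Fatty acid oxidation rose modestly and peroxisomal genes more. Of 20 mitochondrial and ketogenic genes 11 rose and 1 fell, with a median of 0.26 and a largest rise of 1.05 for Pdk4, the kinase that holds back glucose oxidation. Of 24 peroxisomal and PPARα targets 15 rose and 1 fell, with a median of 0.54. Acot2, a thioesterase, ran from −0.67 to 0.09 and from 1.15 to 2.11, a difference of 2.17 (SE 0.22, adjusted p = 4.19e-09). Vnn1, a pantetheinase, rose by 2.04, Acaa1b, the peroxisomal thiolase, by 1.53 and Pex11a, which divides peroxisomes, by 1.21. Not all targets of the receptor moved: Cyp4a14 differed by 0.20 (SE 0.56) and Fgf21 by 0.05 (SE 0.40), both with overlapping groups. The 25 genes of oxidative phosphorylation had a median of −0.11, at that of all genes, and this sign turned with quantile normalization and in the deposited table; 7 were called lower and none higher.

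In glucose metabolism 3 of 20 members rose and 6 fell, a share of falls near the 31.5% of all genes, with a median of −0.19 and 1 member without overlap. G6pc, the phosphatase that releases glucose, ran from 6.31 to 7.41 (median 6.98) and from 4.76 to 6.91 (median 5.70), a fall of 1.15 (SE 0.26, adjusted p = 5.49e-04), with overlapping groups. Irs2, an adaptor of the insulin receptor, fell by 0.74 and Pcx, pyruvate carboxylase, rose by 0.47. Pck1, the gatekeeper of glucose production, differed by 0.05 without a call.

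Enzymes of amino acid breakdown and of the urea cycle mostly fell. Of 24 members 17 fell and 1 rose, with a median of −0.50, against 31.5% of all genes lower. In 3 of the 24 the mice did not overlap between the diets, a share below the 18.2% of all genes. Cps1, the first step of the urea cycle, ran from 4.83 to 5.91 (median 5.61) and from 3.56 to 5.08 (median 3.96), a fall of 1.49 (SE 0.20, adjusted p = 3.68e-07). Hal, histidine ammonia-lyase, fell by 1.39, Tat, tyrosine aminotransferase, by 1.21, Gnmt, the methyl sink, by 1.14 and Cbs, of transsulfuration, by 1.01. Gpt, alanine aminotransferase, rose by 0.22 (adjusted p = 0.0395), a call that was lost without any 1 of normal-diet mice 3, 5, 7 and 8 or of Western-diet mice 1, 4, 6 and 8.

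Plasma proteins made by hepatocytes also fell. In the complement and coagulation list 21 of 31 genes fell and 6 rose, with a median of −0.43, and in 20 the groups did not overlap. C8b, a subunit of the membrane attack complex, ran from 5.28 to 6.09 (median 5.81) and from 1.91 to 4.11 (median 2.32), a fall of 3.03 (SE 0.45, adjusted p = 2.09e-06). The clotting factors F7 and F11 fell by 1.23 and 1.09 and the fibrinogen chain Fga by 1.21. The 6 that rose were Cfd, F13a1, the 3 C1q chains C1qa, C1qb and C1qc, and Pros1; C1q is made by macrophages. Hepatocyte markers as a list gave 10 of 12 lower and none higher, with a median of −0.39 and a summed level (log2 of the members' signals added up in each mouse) of 12.98 to 13.37 on the normal diet and 12.56 to 12.99 on the Western diet. Albumin (Alb) fell by 0.28 and Hnf4a, a transcription factor that defines the hepatocyte, by 0.60. In whole liver, fewer cells of a type and less RNA per cell cannot be told apart.

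The acute phase proteins split evenly, with 9 of 23 higher and 9 lower. Their median of −0.04 turned sign with quantile normalization, in the deposited table and with the mean of a gene's probes. Lcn2, an iron-chelating lipocalin, ran from −0.42 to 2.41 (median −0.18) and from 3.71 to 6.27 (median 5.19), a difference of 4.54 (SE 0.56, adjusted p = 1.03e-07). Normal-diet mice 5 and 6 held the 2 high values of their group, at 2.36 and 2.41, and the same 2 mice had the highest Saa1, at 5.72 and 5.79. Orm3, an orosomucoid, rose by 4.40 and Saa1, a serum amyloid, by 2.52, while Itih3 and Fgb fell by 1.17 and 0.97.

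Male-biased genes, whose pattern growth hormone pulses maintain, were lower on the Western diet. Of 21 genes of the growth hormone axis and male-biased genes, 16 fell and none rose, with a median of −0.73. Hsd3b5, a male-specific steroid enzyme with its probe at chr3:98422576-98422635 of mm9, ran from 5.95 to 6.80 (median 6.45) on the normal diet and from −4.66 to 3.96 (median −0.81) on the Western diet, a fall of 6.67 (SE 1.02, adjusted p = 2.86e-06). The groups did not overlap, but the Western-diet mice covered more than 8 log2 units, the widest spread of any called gene that was above background in both groups. Slco1a1 showed the same shape, from 3.75 to 4.48 and from −1.97 to 3.15. Elovl3, a male-biased elongase, fell by 1.88, Susd4 by 1.85 and Igfals, the acid-labile subunit that carries IGF1, by 1.28.

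Female-biased genes mostly rose, with 7 of 12 higher and 1 lower and a median of 0.86. Cyp2b13 rose by 2.91 (SE 0.72) from a level above background in 5 of 8 normal-diet mice, with overlapping groups. Cyp3a41a and Cyp2a4 rose by 0.98 and 0.96. The exception was Prlr, the prolactin receptor, which fell by 1.47 (SE 0.23, adjusted p = 3.34e-06). Names of near-identical Cyp2b and Cyp3a copies are those of the array's design, and probes may bind more than 1 of them.

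Hormones and receptors of the hepatocyte surface held some of the cleanest falls. Enho, which encodes the peptide adropin, ran from 2.90 to 4.54 (median 4.02) and from 0.41 to 1.06 (median 0.57), a fall of 3.25 (SE 0.23). Avpr1a, a vasopressin receptor, ran from 3.56 to 4.78 and from 0.74 to 1.63, a fall of 3.07 (SE 0.16, adjusted p = 2.72e-15). Inhba, an activin subunit, fell by 2.44 and Angptl8, a feeding-induced inhibitor of lipoprotein lipase, by 1.29, while Gdf15, a stress hormone, rose by 1.67 (SE 0.35, adjusted p = 1.74e-04). Among 22 secreted liver hormones 7 rose and 10 fell; the sign of their median, −0.16, turned with quantile normalization and in the deposited table.

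Metal handling changed at both ends. Hamp, which encodes the iron hormone hepcidin, ran from 7.83 to 8.79 (median 8.13) and from 2.12 to 5.51 (median 4.80), a fall of 3.76 (SE 0.46, adjusted p = 7.48e-08), and its neighbour and near copy Hamp2 fell by 2.57. Bmp6, an upstream signal of hepcidin, fell by 0.80, and Tfrc, the transferrin receptor, rose by 0.94. The metallothioneins, which hold zinc and copper, rose: Mt2 ran from 1.33 to 2.30 (median 1.69) and from 3.31 to 6.15 (median 4.75), a difference of 3.00 (SE 0.51, adjusted p = 1.43e-05), and Mt1 rose by 2.53. Slc30a10, a manganese exporter, fell by 1.37. Over 24 members 8 rose and 10 fell; the median of −0.09 turned sign with quantile normalization and in the deposited table.

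Detoxification genes were mixed, but those of NRF2 leaned up. Of 17 NRF2 targets 12 rose and 2 fell, with a median of 0.54. Cbr3, a carbonyl reductase, ran from −1.27 to −0.59 and from 0.68 to 2.36, a difference of 2.38 (SE 0.35), Nqo1, a quinone reductase, rose by 1.63 and Srxn1, sulfiredoxin, by 1.48 (SE 0.12, adjusted p = 3.01e-11). Other core targets did not rise: Txnrd1 differed by 0.09 without a call, and Osgin1 and G6pdx fell by 0.98 and 0.73. Among 19 antioxidant enzymes 8 rose and 3 fell, with Gpx7 up by 1.71 and Ucp2 by 1.43, while catalase (Cat) fell by 0.26. Phase II enzymes gave 8 rises and 4 falls among 23, with Gsta2 up by 2.10 and Gstp1 down by 1.32. Cytochromes P450 gave 8 rises and 5 falls among 24; Cyp1a2, of the pericentral zone, fell by 1.21 and Cyp3a11 rose by 1.04.

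Chaperones of the endoplasmic reticulum were lower. Of 24 genes of the unfolded protein and integrated stress response 14 fell and 3 rose, with a median of −0.51. Creld2 ran from 6.40 to 7.5 (median 7.30) and from 4.52 to 6.14 (median 5.09), a fall of 1.86 (SE 0.33, adjusted p = 2.15e-05). Sdf2l1 fell by 1.85, Hspa5, the master chaperone BiP, by 1.08 and Xbp1, its transcription factor, by 0.75. Derl3, which removes misfolded proteins and lay outside the list, fell by 2.69 (SE 0.73). Atf3, a stress-induced transcription factor, rose by 1.85 and Psat1, of serine synthesis, by 0.85, whereas Atf4 fell by 0.43. Heat shock proteins gave 8 falls and 2 rises among 16, from Hspa1b, which fell by 1.81, to Hspb1, which rose by 0.99.

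**Figure D3:**
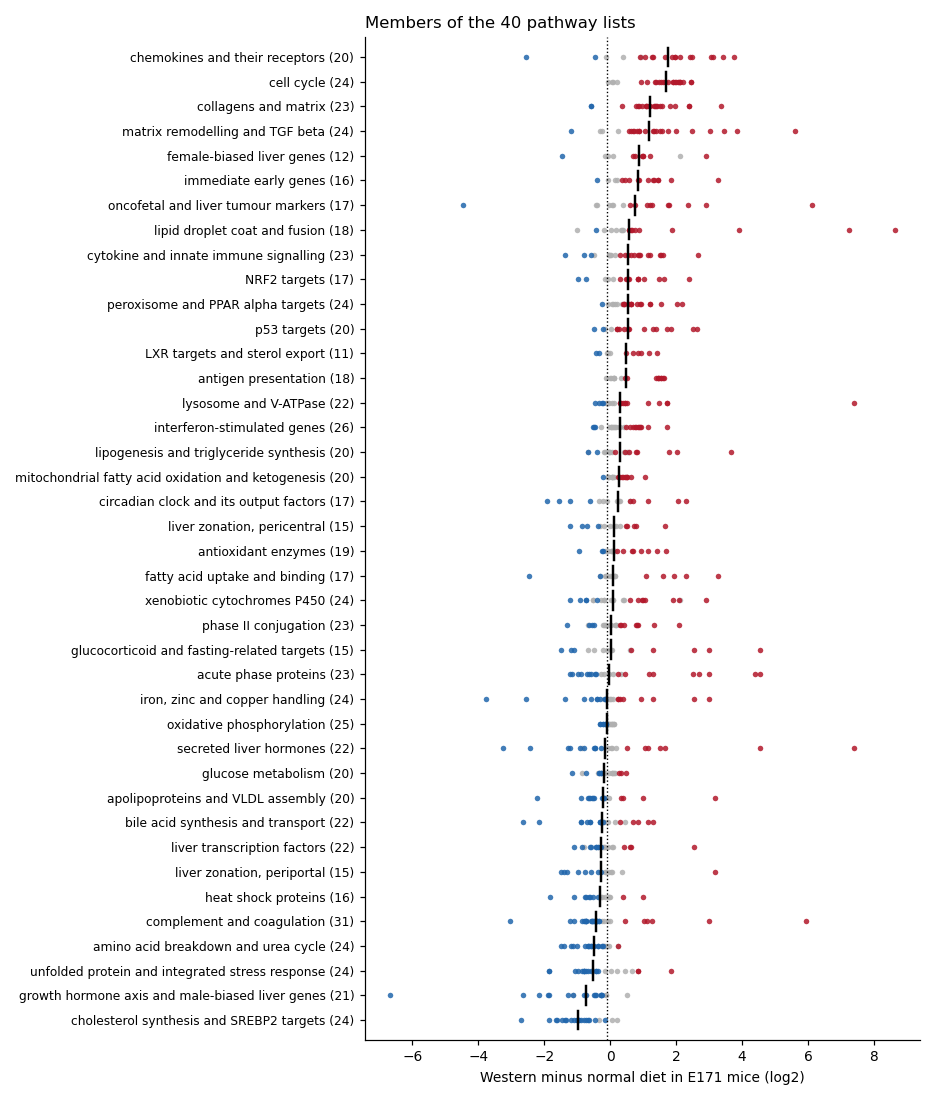
Each point is 1 tested member of 1 of the 40 pathway lists, placed by its Western minus normal diet difference in E171 mice (log2); red members were called higher, blue lower, grey not called, the black bar is the list's median and the dotted line the median of all genes, −0.10. The number of tested members is in brackets. Medians run from −0.96 for cholesterol synthesis and SREBP2 targets to 1.77 for chemokines and their receptors.

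With the settings used here, chemokines had the highest median of all pathway lists. Of 20 tested members 15 rose and 2 fell, with a median of 1.77. Under 17 other settings this median ran from 0.95 to 1.87, and that of the cell cycle list from 0.89 to 1.80. Cx3cr1, a receptor of monocytes and macrophages, ran from −3.19 to −1.38 (median −1.85) and from 0.64 to 2.27 (median 1.40), a difference of 3.43 (SE 0.30, adjusted p = 1.61e-10). Ccl2, which draws monocytes out of the blood, rose by 2.47 and its receptor Ccr2 by 2.42. Ccl3 and Ccl7 rose by 3.76 and 3.12 from levels above background in 1 and 2 of 8 normal-diet mice. Cxcl13, which draws B cells, fell by 2.54 (SE 0.59), with overlapping groups. In cytokine and innate signalling 14 of 23 rose and 3 fell; Il1rn, the antagonist of IL-1, rose by 2.67, and the 2 probes of Tnf disagreed, at −1.37 and 1.53.

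Markers of lipid-laden macrophages stood above those of resident Kupffer cells. Among the 12 genes of the lipid-associated macrophage list 10 rose and 1 fell, with a median of 1.97. In 11, among them Fabp5, which fell, the mice did not overlap, against 18.2% of all genes. Trem2, the lipid receptor that names these cells, ran from −2.81 to −1.06 (median −1.70) and from 1.47 to 2.88 (median 2.29), a difference of 3.96 (SE 0.32, adjusted p = 3.31e-11). Gpnmb was above background in none of 8 normal-diet and all 8 Western-diet mice and at least 47.6-fold higher, and the elastase Mmp12 at least 27.8-fold. Itgax, which encodes CD11c, rose by 2.97, Lgals3 by 2.72 and Cd63 by 2.10. The exception was Fabp5. Which cells expressed the members of this list was not measured. In the monocyte and macrophage list 11 of 12 rose; the exception was Ptprc, whose brightest probe gave −0.47 and whose 5 probes ran from there to 1.41. The summed level of that list was 6.46 to 7.03 on the normal diet and 7.24 to 8.08 on the Western diet, while that of the lipid-associated list, which includes Fabp5, was 8.11 to 8.36 and 7.95 to 8.67. The part of these cells in the chemokine genes was not tested.

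Resident Kupffer cell markers were divided. Of 12, 6 rose and 1 fell, with a median of 0.51 and a summed level of 6.32 to 7.14 on the normal diet and 6.80 to 8.05 on the Western diet. Markers that set Kupffer cells apart from newly arrived macrophages went different ways. Cd5l, a secreted scavenger protein, ran from 4.26 to 5.26 on the normal diet and from 5.38 to 6.58 on the Western diet, a rise of 1.21 (SE 0.23) and the 1 member of the list without overlap. Clec4f differed by 0.11 (SE 0.18) and Timd4 by −0.30 (SE 0.28) without a call, and Cd163 fell by 1.14 (SE 0.43, adjusted p = 0.0262), a call that was lost without Western-diet mouse 3 (a fall of 0.92, adjusted p = 0.0715) and without slide 3 or 4. C1qa and Adgre1, which all macrophages share, rose by 1.12 and 0.92.

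Other immune cells were read from shorter lists. Neutrophil markers gave 5 of 9 higher and 2 lower, with S100a8 and S100a9 up by 1.73 and 1.83. Of all genes 22.3% were higher and 31.5% lower. T and NK cell markers gave 5 of 12 higher and 3 lower, and B cell markers 1 of 9 higher, Cd79b at 0.69. The summed levels of the neutrophil list (7.04 to 7.40 and 6.76 to 7.14) and of the T and NK list (5.80 to 6.25 and 5.15 to 5.71) lay lower on the Western diet, the opposite of most of their called members. Dendritic cell markers gave 7 of 9 higher and 1 lower, with a median of 1.04 and Flt3 up by 1.04. Their summed level, 8.06 to 8.44 on the normal diet and 7.78 to 8.24 on the Western diet, also leaned lower. Genes of antigen presentation were split by class: H2-Eb1 (1.63), H2-Aa (1.6), Cd74 (1.44) and Ciita (1.38), all of class II, rose, while H2-K1 (0.11), H2-D1 (0.00) and B2m (0.12), of class I, were not called. Ubd, a ubiquitin-like protein that inflammatory cytokines induce, rose by 4.62 (SE 0.49). Among 26 interferon-stimulated genes 11 rose and 3 fell, with a median of 0.28, and Isg15 differed by 0.02.

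Collagen and its enzymes rose broadly. Of 23 tested genes of collagens and matrix 21 rose and 2 fell, with a median of 1.22, and in 18 the mice did not overlap, against 18.2% of all genes. Col1a1, the main fibrillar collagen of scar, ran from −1.05 to 0.29 (median −0.01) and from 2.36 to 3.87 (median 3.36), a difference of 3.36 (SE 0.31, adjusted p = 5.15e-10). Its partner Col1a2 and the reticular collagen Col3a1 rose by 2.39 and 2.38. Fn1, most of which hepatocytes secrete into plasma, and Col18a1 fell by 0.58 and 0.57. Among 24 genes of matrix remodelling 20 rose and 1 fell; Lox, which cross-links collagen, rose by 2.48 and Mmp13, a collagenase, by 3.45 from a level above background in 1 of 8 normal-diet mice. The exception was Loxl4, a relative of Lox, which fell by 1.19. Stellate cell markers rose less than the collagens, with 9 of 13 higher and 1 lower and a median of 0.53: Pdgfrb rose by 1.24, Lrat, which stores vitamin A, by 1.08 and Acta2, the mark of the myofibroblast, by 0.34. Their summed level was 7.43 to 7.71 on the normal diet and 7.73 to 8.01 on the Western diet; their part in the rise of the collagens was not tested.

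Markers of bile duct cells rose unevenly among mice. Of 10 genes 8 rose and none fell, with a median of 1.03, but in 1 alone did the groups not overlap. Tspan8 ran from −3.79 to −2.34 and from −2.54 to 0.24, a difference of 1.92 (SE 0.39), and Krt7 rose by 1.05, while Sox9, a factor of the duct lineage, differed by 0.06 without a call. The summed level was 3.15 to 4.08 on the normal diet and 4.10 to 6.35 on the Western diet. Endothelial markers gave 3 rises and 4 falls among 14, near the 22.3% and 31.5% of all genes. Vwf, of large vessels, rose by 1.0 and Lyve1 by 0.97, and Clec4g, of the sinusoid, fell by 0.63.

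Proliferation genes were nearly all higher. Of 24 tested cell cycle genes 20 rose and none fell, with a median of 1.70, against 22.3% of all genes higher, and in 18 the mice did not overlap. Cdc20, which switches on the ubiquitin ligase that starts anaphase, ran from −2.45 to −1.68 (median −2.12) and from −0.39 to 1.37 (median 0.21), a difference of 2.44 (SE 0.29, adjusted p = 5.29e-08). Top2a, the topoisomerase of dividing cells, rose by 2.20, Ccnb1 by 2.13 and Mki67 by 1.92. Cdk1 was above background in 1 of 8 normal-diet mice and in all 8 Western-diet mice. The 4 without a call, Pcna, Tyms, Rrm2 and Ccnd2, lay between −0.08 and 0.21, and Ccnd2 was called without Western-diet mouse 1 or 2. Pcna, Tyms and Rrm2 are replication genes, but other replication genes of the list rose, Mcm2 by 1.75, Mcm5 by 1.38 and Mcm6 by 1.11. Which cells divided was not measured.

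Targets of p53 rose too, with 14 of 20 higher and 2 lower and a median of 0.53. Eda2r, a death-domain receptor, rose by 2.53, Tnfrsf10b, the receptor of TRAIL, by 1.85, Phlda3, an inhibitor of AKT, by 1.71 (SE 0.18) and Cdkn1a, the inhibitor p21, by 1.29 (SE 0.27, adjusted p = 2.20e-04). Mdm2, which restrains p53 in turn, rose by 0.20. Immediate early genes gave 12 rises and 1 fall among 16, with a median of 0.85. Egr2 ran from −4.45 to −3.53 and from −1.23 to 0.06, a difference of 3.26 (SE 0.21, adjusted p = 2.07e-13), with Jun up by 1.31 and Fos by 1.15, while Egr1 differed by 0.21 without a call.

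Genes that mark fetal liver or liver tumours gave 10 rises and 1 fall among 17. Ly6d, a surface protein of epithelia, ran from −1.35 to −0.20 (median −0.79) and from 4.15 to 6.57 (median 5.61), a difference of 6.12 (SE 0.37, adjusted p = 7.20e-14). H19, an imprinted noncoding RNA of fetal liver, ran from −4.96 to −3.00 and from −2.79 to 2.63, a difference of 2.92 (SE 0.63), with the Western-diet mice more than 5 units apart. Spink1, a trypsin inhibitor, rose by 2.37 and Afp, α-fetoprotein, by 0.60; Gpc3 was 0.39 higher without a call. The exception was Tff3, a trefoil peptide, which ran from 1.47 to 4.0 (median 3.34) and from −1.90 to −0.67 (median −1.49), a fall of 4.48 (SE 0.61, adjusted p = 5.18e-07).

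Clock genes differed in both directions. Of 17 tested clock genes and output factors 5 rose and 4 fell, near the 22.3% and 31.5% of all genes, with a median of 0.24. In 4 the mice did not overlap, against 18.2% of all genes. Arntl, which encodes BMAL1 of the positive limb, ran from −0.63 to 1.88 (median 0.80) and from −1.65 to −0.85 (median −1.03), a fall of 1.93 (SE 0.28, adjusted p = 1.26e-06). Nfil3 and Cry1 fell by 1.54 and 1.23. Dbp, an output factor that peaks opposite to Arntl, ran from 1.22 to 5.46 (median 4.20) and from 5.18 to 6.35 (median 6.02), a difference of 2.05 (SE 0.43), and Ciart and Per3 rose by 2.29 and 1.15. The normal-diet mice spread over more than 4 units for Dbp and the Western-diet mice over little more than 1. The hour at which each mouse was sampled is not given, and its part in these differences was not tested.

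Along the lobule the periportal list fell, with 8 of 15 lower and Apoa4 alone higher, and the pericentral list was mixed, with 5 of 15 higher and 4 lower. Rhbg, an ammonium carrier next to the central vein, rose by 1.66 and Axin2, a Wnt target, by 0.73. Among 22 liver transcription factors 9 fell, among them Foxa3 by 1.11, and 4 rose, Pparg first.

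Markers of other tissues were read as a check of the dissection. Exocrine pancreas genes gave 3 falls among 4 tested, with a summed level of 5.01 to 5.89 on the normal diet and 3.84 to 4.31 on the Western diet, and Cela1 had a second probe that went the other way. Skeletal muscle genes lay at −0.93 to −0.59 and −0.98 to −0.65, and none of 4 erythroid genes was called. Of 7 tested adipocyte markers Cidec, Cfd and Fabp4 rose, while Lep fell by 0.51, Plin1 by 0.43, and Retn and Car3 were not called. Retn, 0.43 higher, passed without normal-diet mouse 1, 3 or 6 or Western-diet mouse 4. Cfd, which encodes the adipsin protease, ran from −2.44 to 1.78 (median −1.36) and from 2.98 to 6.07 (median 5.09), a difference of 5.92 (SE 0.81, adjusted p = 4.83e-07).

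Some of the most regular differences were small. Rps27, a ribosomal protein, ran from 7.53 to 7.69 and from 7.0 to 7.19, a fall of 0.54 (SE 0.04, adjusted p = 3.31e-11), small but without overlap. Pigp, of the enzyme that starts GPI anchors, rose by 1.20 (SE 0.06), and Itih2, a hyaluronan-binding plasma protein, fell by 0.93 (SE 0.07). Of 15315 protein-coding genes 27.1% rose and 29.4% fell, of 1386 long noncoding genes 17.5% and 30.1%, and of the 5457 probes without a name 11% and 38%.

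Western-diet mice differed among themselves in how far they lay from the normal diet. Hsd3b5 was 3.96, 3.11 and 2.14 in mice 6, 1 and 8 and between −4.66 and −0.46 in the other 5. The same 3 mice had the lowest Western-diet levels of Col1a1, at 2.68, 2.36 and 2.52, and the 3 lowest first principal component values, 22.9, 29.1 and 33.7. For each list the mean level of its members was taken in each mouse, less the mean of the 8 normal-diet mice. In 26 of 55 lists these levels did not overlap between the diets, and in 14 of the 26 mice 1, 6 and 8 were the 3 nearest to the normal diet; these mice were singled out after their values were seen. The 14 include collagens (0.90, 0.84 and 0.87 in mice 1, 6 and 8, up to 1.77 in mouse 3), cell cycle (0.96, 1.15 and 1.31, up to 1.98 in mouse 7), lipid-associated macrophages (1.75, 1.95 and 1.80, up to 3.01 in mouse 3) and the male-biased list (−0.43, −0.58 and −0.70, down to −1.93 in mouse 3).

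Droplet and sterol genes were among the lists that did not follow that order. The droplet list lay between 1.29 and 1.52 in all 8 Western-diet mice. That mean rests largely on Cidea and Cidec, whose differences far exceeded the list's median of 0.57. The sterol list was lowest in mouse 4, at −1.39, and nearest to the normal diet in mouse 7, at −0.69. In the LXR list and in the peroxisomal and PPARα list, mice 3, 6 and 7 were the nearest to the normal diet. Mice 1, 6 and 8 lay on slides 4, 1 and 2, with 36129, 35034 and 32164 probes well above background; the other 5 gave 35294 to 37261. The part of array quality in the order of the mice was not tested.

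**Figure D4:**
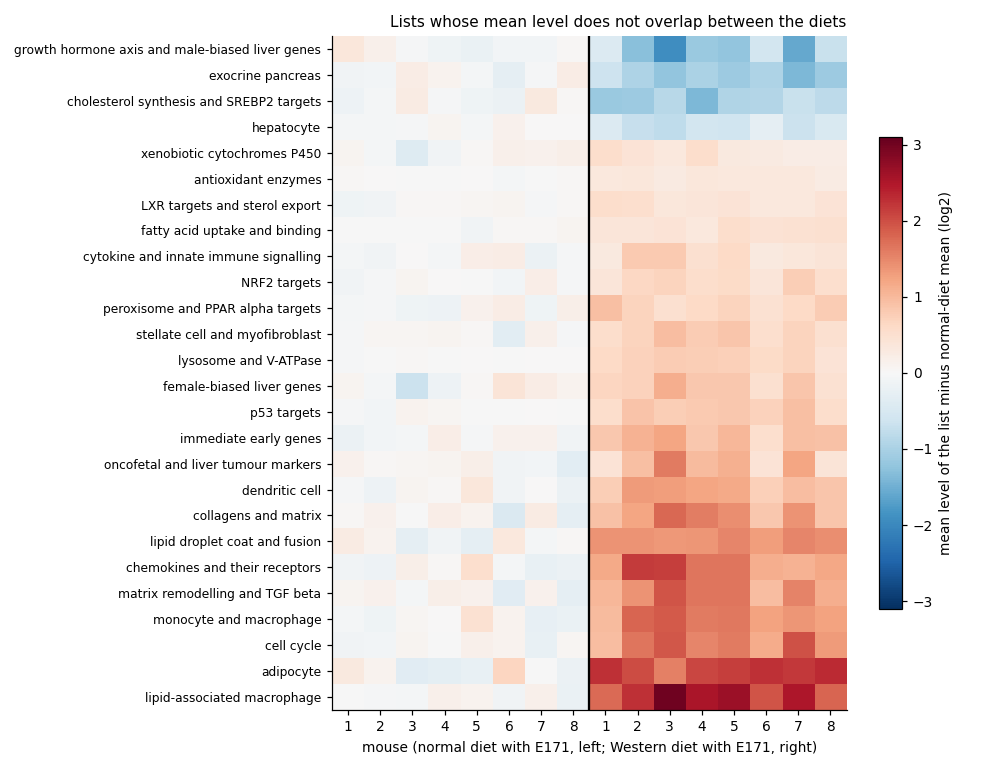
Mean log2 level of each of the 26 lists that did not overlap between the diets, in each of the 16 E171 mice (columns), less the mean of the 8 normal-diet mice; red is higher, blue lower. Mouse 3 of the Western diet has the deepest colours for the male-biased list (−1.93) and for lipid-associated macrophages (3.01), and mice 1, 6 and 8 are paler in both.

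The same diet difference was measured in mice without E171, which share no mice with this comparison. There 11056 genes were called; 9263 were called in both with the same sign, 74.1% of the calls with E171 and 83.8% of those without, and 2 with opposite sign. Over the 17810 genes with a symbol the differences correlated with r = 0.94 across genes, which are not independent and were measured on shared slides. A further 3234 genes were called with E171 and not without, and 3031 of them had the same sign in both. A call in one and not in the other does not show that the differences differ, and the test of that difference called none of the 3234.

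Tested over all genes, the diet difference with E171 less that without it passed for 0 of 23267 genes (0%) in limma, with a smallest adjusted p of 0.482; 1204 genes had an unadjusted p below 0.05. The count was 1 unnamed probe without the filter on dim probes. The median SE of this difference was 0.15, larger than that of the diet difference itself, 0.11. Wide gaps among genes named here, picked after their values were seen, did not pass. Cfd differed by 5.92 (SE 0.81) with E171 and 2.80 (SE 0.81) without, a gap of 3.12 (SE 1.14, adjusted p = 0.887). Hamp fell by 3.76 and by 2.30, a gap of −1.47 (SE 0.65), and Hspa1b fell by 1.81 and by 0.47, a gap of −1.35 (SE 0.49, adjusted p = 0.865). Cdk1 rose by 2.05 with E171 and 3.25 without, a gap of −1.20 (SE 0.45, adjusted p = 0.916). Trem2 differed by 3.96 and 3.98, Sqle fell by 2.69 and 2.58, and Hsd3b5 by 6.67 and 6.86.

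**Figure D5:**
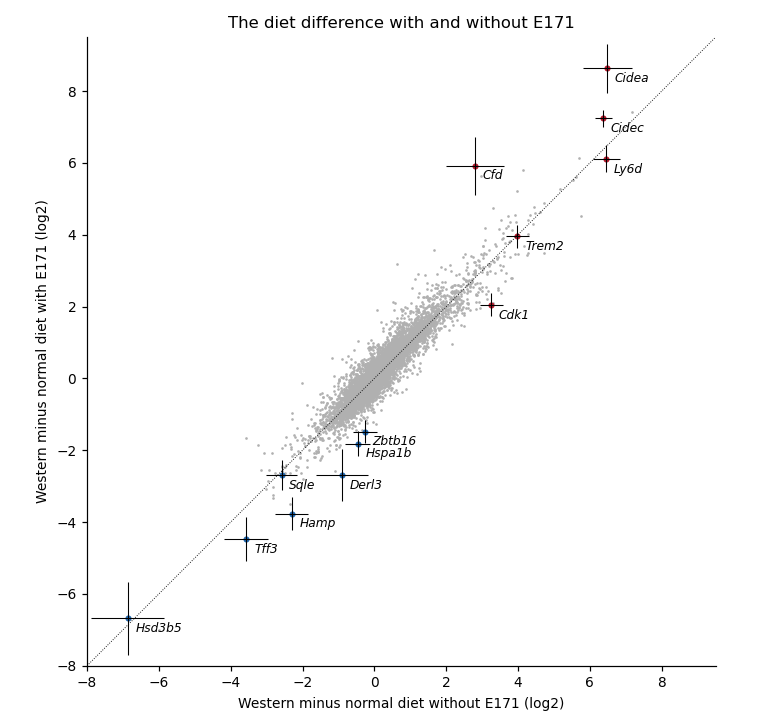
Western minus normal diet difference (log2) of each gene with a symbol without E171 (horizontal) and with E171 (vertical); named genes carry SE bars on both axes and the dotted line marks equal differences. Trem2, Sqle and Hsd3b5 lie on the line within their SE, and Cfd, at 2.80 and 5.92, lies above it without passing the test of the gap.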

How the data were processed

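Each of 32 mouse livers gave 1 Cy3 array. Per the submitters' processing notes the scans were read with Agilent Feature Extraction 10.10.1.1 and analysed with limma; the deposited scanner files hold background-subtracted spot intensity on a linear scale, and the deposited value table holds the authors' log2 values, whose normalization is not given in the sources used here. Here log2 of the processed intensity, less each array's 75th percentile, was fitted with limma 3.58.1 in R 4.3.3 over all 32 arrays with 4 group means, and p-values were adjusted over all genes. The mean of a probe's spots was used, without control and outlier spots. A gene below background on every array of a group has a lower bound of fold, set against the dimmest probe above background. Some genes that the rule would name are not reported here. Names came from the array files, updated through RefSeq.

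Named genes followed a rule of largest and most regular changes and largest changes per list. The members and gene lists were chosen with earlier results of these data known. Array number limits the precision. Normalization, background correction, the dim-probe filter, the choice of probe, array weights, slides, a replicate block and single mice were varied.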

Additional observations from a re-analysis of the deposited data

Results flagged for a closer look

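Among 348 sets of 8 mice, each 1 named gene in 1 diet group, 20 held a mouse whose gap to the nearest other exceeded Dixon's limit as a share of the group's range; chance gives about 5%. All values are log2 levels as in the report.

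Normal-diet mouse 6 stood apart in 8 of them. It was lowest for Apom (6.12), Cps1 (4.83), Gnmt (7.87), Lrat (−0.98) and Lyve1 (−1.46), and highest for Apoc2 (8.51), Acaa1b (6.79) and Itih3 (8.20). Apom, Cps1 and Gnmt fell on the Western diet and Apoc2 and Acaa1b rose. For these 5 genes the mouse thus lay nearer to the Western-diet group than its 7 companions. For Lrat, Lyve1 and Itih3 it lay farther away. Its array was the dimmest of the normal-diet group. The 75th percentile before scaling was 175.0, against 229.9 to 276.7 in the companions. On the second principal component the mouse lay at 41.4 and the companions between −16.7 and −1.8. In the fit with array weights it had the lowest weight of the normal-diet group, 0.45. The part of array quality in these values was not tested.

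Other normal-diet mice stood apart for single genes. Mouse 7 was highest for Vldlr (−0.44), mouse 5 for C1qa (2.50), mouse 2 for Srxn1 (3.67) and mouse 3 for Gpnmb (−6.05). Mouse 8 was lowest for Phlda3 (−0.85) and mouse 1 for S100g (−7.28). Gpnmb and S100g were not above background in these groups.

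On the Western diet, mouse 6 was lowest for Gpat3 (1.92), Acot2 (1.15) and Pigp (2.81), and mouse 3 for Abcc3 (5.74). Mouse 1 was highest for Cps1 (5.08) and Itih2 (5.54), both of which fell on that diet.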

How the results depend on the processing

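The count of called genes kept within 1.5 times of 12499 under every alternative that used all slides, and leaving out 1 mouse gave 11428 to 12768. The counts of 2-fold changes moved more: 509 higher and 194 lower with normexp background correction, and 947 higher and 215 lower in the deposited value table, where 51.0% of the calls were higher. Within single slides, with 2 mice per group, the calls were 1116 on slide 1 (859 higher, 257 lower, 77.0% higher), 2947 on slide 2 (1726 and 1221, 58.6%), 4845 on slide 3 (2283 and 2562) and 1178 on slide 4 (810 and 368, 68.8%); the 2-fold counts were 671 and 114 on slide 1 and 730 and 261 on slide 4. Fewer mice make these tests less able to call. The median of all genes lay between −0.16 and −0.03.

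With the mouse number as a replicate block 12980 genes were called (5318 higher, 7662 lower). Correlations of the deviations of same-numbered mice ran from −0.01 to 0.26, so the number was not taken as a pairing. The difference of the diet differences had 1 called probe with the replicate block and 1 with no filter on dim probes. Sign changes were few: Tnf to 0.0803 and Ptprc to 0.86 with the mean of a gene's probes, and Gpt to −0.0039 and Cyp2a4 to −0.0442 within slide 3. Signal near background limits the folds of genes seen in 1 group alone.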

Other observations

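Lysosomal genes leaned up. Of 22 members 12 rose and 4 fell, with a median difference of 0.29. The protease Ctsk rose by 1.71 (SE 0.24) and Atp6v0d2, a proton pump subunit known from macrophages and osteoclasts, by 1.73. Lipa, which frees cholesterol and fatty acids from esters, rose by 0.43, while the proteases Ctsh and Ctsl fell by 0.45 and 0.26 and the membrane protein Lamp2 by 0.35. The cholesterol exporters Npc1 and Npc2 differed by −0.08 and 0.05 without a call.

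Targets of the glucocorticoid receptor also differed in both directions, with 5 of 15 higher and 3 lower. Zbtb16 and Tsc22d3, both induced by glucocorticoids, fell by 1.48 and 1.1, and Fkbp5 and Sgk1 differed by −0.11 and 0.02 without a call. Those that rose were Lcn2, Mt2, Mt1, Cdkn1a and Cebpd (0.62). The part of glucocorticoid signalling in these rises and falls was not tested. The sign of the list's median, 0.02, turned when slide 1, 3 or 4 was left out and with array weights.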
